A study of Bos taurus with 22 samples.

Results

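The Kinsella Composite (KC) comparison set 4 efficient steers (low residual feed intake, L-RFI) against 4 inefficient steers (high residual feed intake, H-RFI) by RNA-Seq of subcutaneous adipose tissue. The 8 steers were chosen by their breed label and were 8 of the 22 steers of the series, which also holds 8 Angus (ANG) and 6 Charolais (CHAR) steers. Residual feed intake adjusted for backfat (RFIfat) is the feed an animal eats above or below that predicted from its body weight, growth and backfat, so a low value marks an efficient animal. The labels gave an RFIfat of 0.94, 0.54, 1.62 and 2.03 kg for the H-RFI steers F1, F7, F8 and F9, and of -1.59, -0.8, -1.77 and -1.16 kg for the L-RFI steers F10, F11, F14 and F16. Kinsella Composite is a crossbred beef herd, described in the labels as Hereford crossed with Angus and in the study's methods as sired by Angus, Charolais or composite bulls. All steers were castrated males on a finishing diet, and their backfat was taken after slaughter. Age and birth year were not given per steer, and neither were sire and the day of extraction, so none of these could be set against RFI class. The labels name the cell type as adipocytes, but whole backfat was extracted, and none of the adipocyte markers could be matched to an identifier, so the cell type label was not checked here. In whole tissue, fewer cells of a type and less RNA per cell cannot be told apart, which holds for every level below.

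Subcutaneous fat stores triglyceride in adipocytes, and around these lie fibroblasts, preadipocytes, blood vessels, nerves and immune cells. In cattle adipose tissue is a main site of fatty acid synthesis, and the transcription factor SREBF1 controls many genes of sterol and fatty acid synthesis. Ribosome production is among the costliest activities of a cell, and it rises and falls with growth. The early response genes of the MAP kinase pathway are switched on within minutes by growth factors or tissue stress.

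The authors deposited reads counted per gene, and every level below is in CPM, reads on a gene scaled to a common library total, after TMM normalization of the 8 steers. Values are always listed in the order F1, F7, F8 and F9 for H-RFI and F10, F11, F14 and F16 for L-RFI steers. Each steer had 8033008 to 12426133 reads on the 24616 genes of the table, so that 3 counts, taken as the floor, corresponded to 0.241 to 0.373 CPM. Reads placed at a single position fell on genes more often in H-RFI (39.5 to 41.4%) than in L-RFI steers (37.2 to 38.5%), and the classes were apart (p = 0.0286 in a 2-sided exact permutation test, as low as 4 against 4 can give). Total counts averaged 11190000 ± 913100 (SD, n = 4) for H-RFI against 9117000 ± 1253000 (SD, n = 4) for L-RFI, and these groups overlapped (p = 0.0857, same exact test). The share of reads on genes thus moved with RFI class, and its part in the differences below was not tested. After every steer was thinned to the smallest library, 1393 genes reached the wider level defined next, against 1511. F11 stood apart from all other steers in the muscle genes NEB and TTN, which are given with their group.

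The log2 fold change (log2FC) is positive where L-RFI steers were higher. A gene was differentially expressed (DE) at a false discovery rate (FDR) below 0.1 with an absolute log2FC of at least 1 in edgeR's quasi-likelihood test. Of 13725 genes tested in KC, 1 gene was DE (0.00729%), namely C18H19orf48. At a wider level, an FDR below 0.2 with no fold limit, 714 genes were higher (5.2%) and 797 lower (5.81%) in L-RFI steers, and about 1 in 5 of such genes is expected to be false. With upper-quartile scaling in place of TMM the split was 958 higher and 659 lower. The groups did not overlap for 729 genes that were higher (5.31%) and 770 that were lower (5.61%) in L-RFI steers. The wider level rested on 3 steers. Without F7 or without F10 no gene reached it (edgeR's quasi-likelihood test, with 1703 and 1686 genes at an unadjusted p under 0.05), and without F8 only 2 genes did, whereas 1078 to 1649 genes did without each of the other steers. With RFIfat in kg in place of RFI class, again 0 genes reached it (1721 at an unadjusted p under 0.05). These counts apply to every gene below that is given as lower or higher at an FDR below 0.2. DESeq2 called 165 genes DE and edgeR's exact test 177, as many as the study lists for KC. In the exact test all 177 genes of the study's KC list had an FDR below 0.2 and an absolute log2FC of at least 1.

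Gene names were taken from the study's list of DE genes, which pairs 242 identifiers with symbols, and 1349 of the 1511 genes at the wider level have no symbol there. The KC part of that list holds 177 genes, and 126 of them were placed by hand in 11 groups by role. The list was chosen by the study on these same 8 steers, so the direction and the number of its genes are not independent evidence, and they are given as a description. Of its 74 genes listed as higher, 72 had an FDR below 0.2 and 44 had groups that did not overlap, with a median log2FC of 1.33. Of the 103 genes listed as lower, 99 had an FDR below 0.2 and 68 had groups that did not overlap, with a median of -1.35. The median over all genes tested was 0.00. Members of the role groups below were drawn from these listed genes, so the counts of each group are to be read against these shares. Reads cannot be assigned with certainty where genes overlap, and among the named genes RefSeq lists overlaps of SREBF1 with RAI1, RRP9 with PARP3, PUSL1 with INTS11, BEND3 with PDSS2, TUBB4B with FAM166A, AMPD3 with RNF141, ASRGL1 with CSKMT, TMEM266 with NRG4, SLC10A6 with PPM1B and KCNMB1 with KCNIP1.

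**Figure D1:**
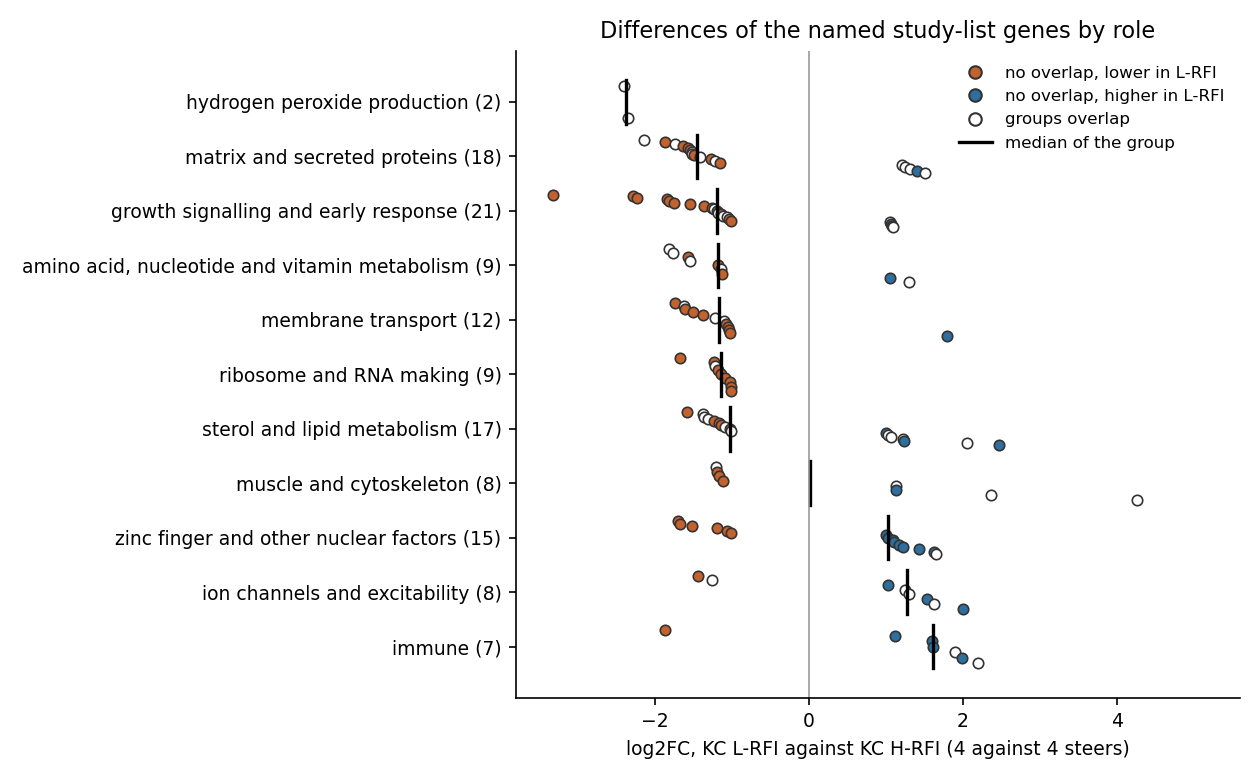
Log2FC of the 126 list genes placed in a role group, L-RFI against H-RFI in KC, by role group with the number of genes in parentheses. Filled points mark genes for which the 4 steers of each class did not overlap, open points those that overlapped, and black bars the median. All 9 genes of the group drawn as ribosome and RNA making and 11 of 12 transport genes lie left of 0, while 6 of 7 immune genes and 6 of 8 genes of ion channels lie right of it. Of all 177 listed genes, 103 were lower and 74 higher.

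A group named ribosome and RNA making held 9 listed genes. All 9 were lower in L-RFI steers at an FDR below 0.2, and 8 of them had groups that did not overlap. The same held for 99 and 68 of all 103 genes listed as lower, from which these 9 were drawn. Of a list of 58 genes of ribosome biogenesis only 5 could be matched, so that pathway as a whole was not examined. The name of the group is wider than its members, since C18H19orf48 has no established function, PPRC1 acts on genes for mitochondria and SMG9 takes part in RNA decay. C18H19orf48 (ENSBTAG00000011079) was at 26.6, 41.5, 43.3 and 30.7 CPM in H-RFI and 10.02, 12.1, 8.92 and 13.4 CPM in L-RFI steers. Every H-RFI steer lay above every L-RFI steer. The mean was 35.6 ± 8.15 CPM (SD, n = 4) for H-RFI against 11.1 ± 2.01 CPM (SD, n = 4) for L-RFI, a log2FC of -1.68 (SE 0.20, FDR = 0.0816). It was no longer DE without F7, F8, F10 or F14 (FDR = 0.302, 0.166, 0.341 and 0.178). In RefSeq 4 unnamed genes overlap it, and its counts are uncertain there.

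URB2, a nucleolar protein needed for ribosome production, was at 33.1, 54.5, 55.4 and 35.3 CPM in H-RFI and 17.9, 22.8, 15.03 and 23.2 CPM in L-RFI steers (log2FC -1.17, SE 0.21, FDR = 0.126). PPRC1, a transcriptional coactivator, was at 55.96, 102, 96.1 and 60.8 CPM in H-RFI and 35.7, 40.1, 24.1 and 42.3 CPM in L-RFI steers (log2FC -1.15, SE 0.24, FDR = 0.126). PPAN, which takes part in the maturation of the large ribosomal subunit, was at 18.1, 33.4, 37.2 and 21.8 CPM in H-RFI and 10.3, 15.04, 9.16 and 12.6 CPM in L-RFI steers (log2FC -1.22, SE 0.25, FDR = 0.126). For all 3 genes F7 and F8 were the highest steers, F1 and F9 followed, and the L-RFI steers lay below with F14 the lowest. UTP4, of the complex that processes the small subunit RNA, and the RNA helicase DDX51 had a log2FC of -1.01 and -1.08, without overlap of the groups. The remaining members were RRP9, a protein of the U3 small nucleolar particle (-1.21, the one whose groups overlapped), PUSL1 (-1.02) and SMG9, of nonsense-mediated decay (-1.01).

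The group of growth signalling and early response held 21 genes, of which 17 were lower in L-RFI steers and 4 higher at an FDR below 0.2, with a median log2FC of -1.19. DUSP4 (ENSBTAG00000044208), a phosphatase that is induced by MAP kinases and switches them off, was at 31.7, 71.1, 37.1 and 22.5 CPM in H-RFI and 5.51, 8.72, 13.7 and 5.48 CPM in L-RFI steers (log2FC -2.28, SE 0.40, FDR = 0.126). FOSL1, a part of the AP-1 transcription factor, was low, at 1.65, 11.3, 10.1 and 4.29 CPM in H-RFI and 0.551, 0.0958, 0.611 and 1.52 CPM in L-RFI steers, from 1 to 129 counts per steer (log2FC -3.32, SE 0.72, FDR = 0.126). ARC, an immediate early gene, was at 3.78, 12.8, 4.97 and 3.64 CPM in H-RFI and 0.551, 1.25, 1.100 and 2.45 CPM in L-RFI steers (log2FC -2.24, SE 0.53, FDR = 0.126). In each of these the groups did not overlap and F7 was the highest of all steers, and F8 was close to it for FOSL1 only.

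AEN, a nuclease induced by p53, was at 5.91, 18.1, 16.04 and 8.41 CPM in H-RFI and 2.86, 4.02, 2.81 and 3.96 CPM in L-RFI steers (log2FC -1.82, SE 0.36, FDR = 0.126). ITGA5, the alpha chain of the fibronectin receptor, was at 409, 382, 600.5 and 391 CPM in H-RFI and 139.5, 135, 175 and 300.2 CPM in L-RFI steers (log2FC -1.25, SE 0.26, FDR = 0.126), with F8 well above the other H-RFI steers and F16 the nearest L-RFI steer. ERRFI1, an inhibitor of the EGF receptor, was at 36.02, 92.7, 51.2 and 36.1 CPM in H-RFI and 24.9, 22.99, 22.5 and 27.5 CPM in L-RFI steers (log2FC -1.14, SE 0.28, FDR = 0.131), and its log2FC was -0.75 without F7. SERTAD1, a cell cycle regulator counted among the immediate early genes, overlapped between groups, at 13.7, 36.8, 18.3 and 13.8 CPM in H-RFI and 8.48, 5.75, 10.51 and 14.9 CPM in L-RFI steers, and its log2FC of -1.06 was -0.63 without F7. The 4 genes that were higher in L-RFI steers were TNFSF10, SESN1, CITED2 and RASL11A, with a log2FC of 1.09, 1.10, 1.07 and 1.06. TNFSF10, the death ligand TRAIL, was at 32.5, 29.5, 19.3 and 25.4 CPM in H-RFI and 44.7, 40.6, 77.5 and 64.3 CPM in L-RFI steers (log2FC 1.09, SE 0.23, FDR = 0.126), so that the groups did not overlap and F14 and F16 were the highest. SESN1, a brake on the growth kinase mTORC1, was at 60.2, 31.5, 49.2 and 71.1 CPM in H-RFI and 119, 204, 74.3 and 57.1 CPM in L-RFI steers, and its log2FC was 0.66 without F11, the highest steer.

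Of the 12 listed genes for transport across membranes, 11 were lower in L-RFI steers and 1 higher at an FDR below 0.2. SLCO4A1 (ENSBTAG00000016388), a carrier of organic anions and thyroid hormone, was at 12.2, 36.9, 20.7 and 18.1 CPM in H-RFI and 6.06, 8.33, 6.72 and 5.25 CPM in L-RFI steers (log2FC -1.73, SE 0.32, FDR = 0.126), and SLC7A1, which carries lysine and arginine, at 55.8, 74.9, 74.4 and 55.2 CPM in H-RFI and 26.1, 25, 31.04 and 42.1 CPM in L-RFI steers (log2FC -1.07, SE 0.19, FDR = 0.126). SLC20A1, a phosphate carrier, was at 97.0, 214, 146 and 103 CPM in H-RFI and 53.9, 80.4, 66.5 and 74.5 CPM in L-RFI steers (log2FC -1.02, SE 0.24, FDR = 0.126, and log2FC -0.74 without F7). The groups did not overlap for any of these, with F7 the highest each time. SLC28A1, a nucleoside carrier, was low at 2.13, 3.26, 5.54 and 3.15 CPM in H-RFI and 1.102, 1.53, 0.978 and 1.28 CPM in L-RFI steers (log2FC -1.51, SE 0.35, FDR = 0.126). SLC2A1, the glucose transporter GLUT1, showed another order, at 87.2, 109, 40.6 and 21.8 CPM in H-RFI and 7.49, 30.8, 34.2 and 11.3 CPM in L-RFI steers (log2FC -1.62, SE 0.56, FDR = 0.183). For SLC2A1, F1 and F7 were highest while F9 lay within the L-RFI range. SLC25A1, the mitochondrial citrate carrier, and SLC25A22, the glutamate carrier, had a log2FC of -1.03 and -1.048. The member that was higher in L-RFI steers was SLC10A6, a carrier of sulphated steroids (1.79).

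DUOX2 and DUOXA2 code for an oxidase that makes hydrogen peroxide and for its maturation factor, and both lay far apart between H-RFI steers. DUOX2 was at 195, 93.7, 18.9 and 8.49 CPM in H-RFI and 5.73, 21.3, 25.8 and 9.21 CPM in L-RFI steers (log2FC -2.35, SE 0.86, FDR = 0.195), and DUOXA2 at 27.1, 11.97, 3.94 and 1.78 CPM in H-RFI and 1.102, 2.20, 3.79 and 1.40 CPM in L-RFI steers (log2FC -2.40, SE 0.76, FDR = 0.165). F1 was highest and F7 next for both genes, F9 lay within the range of the L-RFI steers, and F8 was within it for DUOX2 and just above it for DUOXA2. Without F1 the log2FC was -1.38 for DUOX2 and -1.47 for DUOXA2. The 2 genes overlap each other in the RefSeq annotation, and reads there cannot be assigned with certainty.

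**Figure D2:**
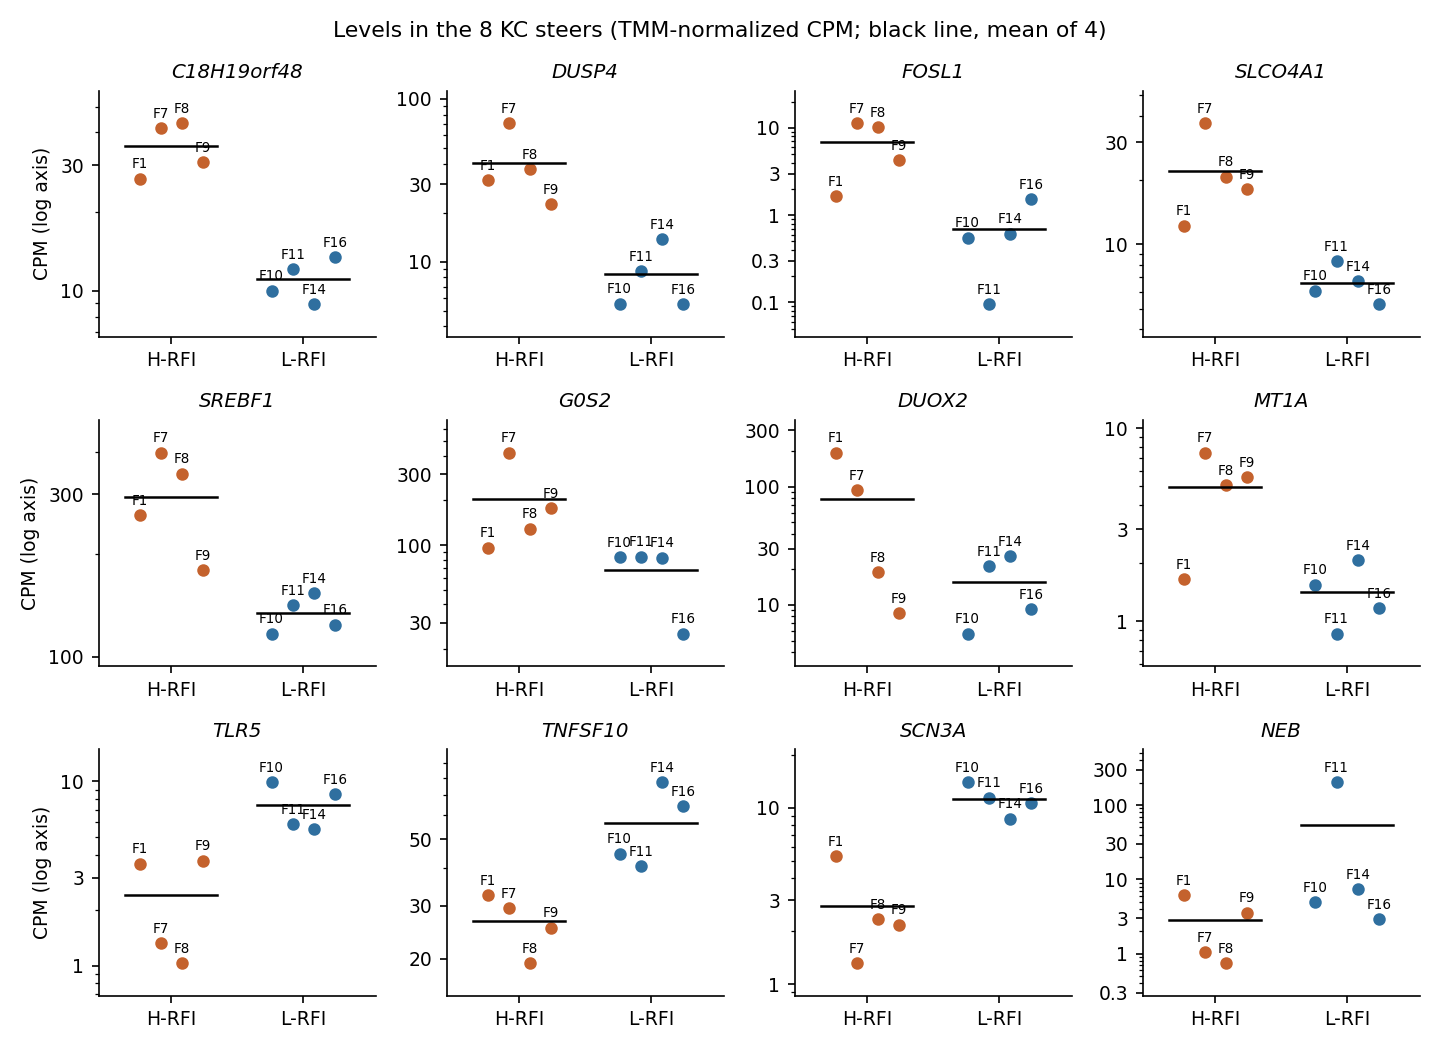
TMM-normalized CPM of 12 genes in the 8 KC steers, on log axes that differ between panels, with each steer named and a black line at the mean of 4. DUSP4, SLCO4A1 and G0S2 are highest in F7, DUOX2 in F1, and NEB stands at 204 CPM in F11 against 0.751 to 7.33 CPM in the other steers.

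Among 9 genes of amino acid, nucleotide and vitamin metabolism, 7 were lower in L-RFI steers and 2 higher at an FDR below 0.2. AMPD3, which deaminates AMP, was at 20.4, 35.7, 34.0 and 20.4 CPM in H-RFI and 15.6, 9.48, 12.3 and 13.4 CPM in L-RFI steers (log2FC -1.12, SE 0.23, FDR = 0.126), and ASRGL1, an asparaginase, at 153, 185, 75.8 and 118 CPM in H-RFI and 35.9, 58.9, 73.0 and 67.7 CPM in L-RFI steers (log2FC -1.18, SE 0.28, FDR = 0.127). Neither overlapped between groups, though F8 came close to F14 for ASRGL1. MT1A, a metallothionein that binds zinc and copper, was at 1.65, 7.48, 5.07 and 5.58 CPM in H-RFI and 1.54, 0.862, 2.08 and 1.166 CPM in L-RFI steers (log2FC -1.82, SE 0.46, FDR = 0.133), and here F1 lay within the L-RFI range. Metallothionein genes are near copies of each other, which makes the split of reads between them uncertain. The others that were lower were UPP1, of uridine breakdown, CYP26B1, of retinoic acid breakdown, and PIPOX and SARDH, which oxidise pipecolic acid and sarcosine, with a log2FC of -1.57, -1.54, -1.76 and -1.14. ETFBKMT, a methyltransferase of the electron transfer flavoprotein, was higher at 3.87, 2.29, 2.91 and 3.23 CPM in H-RFI and 5.84, 6.51, 8.55 and 4.66 CPM in L-RFI steers (log2FC 1.053, SE 0.26, FDR = 0.131), without overlap. IDO1, which starts the breakdown of tryptophan, was also higher, at 21.7, 41.5, 12.01 and 23.7 CPM in H-RFI and 105, 48.3, 58.5 and 32.8 CPM in L-RFI steers (log2FC 1.31, SE 0.40, FDR = 0.158), with F10 highest and F16 below the highest H-RFI steer.

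Matrix and secreted proteins counted 18 genes, 11 lower and 4 higher in L-RFI steers at an FDR below 0.2. SOST, which codes for the Wnt inhibitor sclerostin, was even among H-RFI steers and spread among L-RFI steers, at 30.1, 30.98, 28.9 and 27.2 CPM in H-RFI and 7.16, 17.1, 11.8 and 3.96 CPM in L-RFI steers (log2FC -1.54, SE 0.34, FDR = 0.126). TTR, which carries thyroid hormone and retinol in blood, was at 4.84, 5.63, 7.13 and 9.70 CPM in H-RFI and 3.19, 2.68, 1.589 and 2.21 CPM in L-RFI steers (log2FC -1.49, SE 0.30, FDR = 0.126). CHST13, a chondroitin sulfotransferase, and COL13A1, a collagen of the cell membrane, were low, at 5.13, 3.43, 5.72 and 3.40 CPM in H-RFI and 1.43, 1.92, 1.100 and 1.166 CPM in L-RFI steers (log2FC -1.63, SE 0.31, FDR = 0.126) and at 4.45, 2.46, 1.97 and 2.42 CPM in H-RFI and 0.991, 0.766, 0.367 and 0.933 CPM in L-RFI steers (log2FC -1.86, SE 0.39, FDR = 0.126). The groups overlapped for none of the 4 genes. PAPPA, a protease that frees insulin-like growth factors, was at 13.8, 22.97, 27.6 and 8.41 CPM in H-RFI and 3.42, 2.59, 10.1 and 9.56 CPM in L-RFI steers (log2FC -1.51, SE 0.48, FDR = 0.165), and F9 lay below F14 and F16. HAS1, a hyaluronan synthase, LRG1 and TF, the iron carrier transferrin, did not reach the wider level (log2FC -2.14, -1.73 and 1.32, FDR = 0.207, 0.215 and 0.204). Genes that were higher in L-RFI steers were NDNF, FREM1, RELN and GALNT15, at a log2FC of 1.41, 1.51, 1.25 and 1.21, and the groups did not overlap for NDNF.

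In the group of muscle and cytoskeleton, 4 of 8 genes were lower and 3 higher at an FDR below 0.2. TUBB4B and TUBB6, both beta tubulins, were at 121, 206, 169 and 133 CPM in H-RFI and 68.5, 52.8, 75.3 and 95.0 CPM in L-RFI steers (log2FC -1.11, SE 0.21, FDR = 0.126) and at 64.5, 108, 102 and 70.1 CPM in H-RFI and 33.4, 23.8, 42.9 and 54.7 CPM in L-RFI steers (log2FC -1.16, SE 0.26, FDR = 0.126). SYNJ2, an inositol phosphatase of vesicle traffic, was at 23.7, 20.1, 14.8 and 15.8 CPM in H-RFI and 5.62, 4.98, 7.94 and 14.1 CPM in L-RFI steers (log2FC -1.19, SE 0.31, FDR = 0.134). F7 was highest for the tubulins and F1 for SYNJ2, and the groups did not overlap for any of them. WIPF3, which binds the actin regulator WASP, was higher in L-RFI steers at 14.04, 8.98, 18.1 and 20.6 CPM in H-RFI and 40.8, 46.6, 18.9 and 29.5 CPM in L-RFI steers (log2FC 1.14, SE 0.31, FDR = 0.137), with F14 below F9. The kinases ALPK2 and ALPK3 had a log2FC of 1.14 and -1.20 (ALPK3 at -0.76 without F8). NEB, nebulin of striated muscle, was at 6.10, 1.06, 0.7505 and 3.56 CPM in H-RFI and 4.96, 204, 7.33 and 2.92 CPM in L-RFI steers (log2FC 4.26, SE 1.38, FDR = 0.168), and TTN, titin, at 272, 124, 64.5 and 87.9 CPM in H-RFI and 80.3, 2394, 257 and 94.0 CPM in L-RFI steers (log2FC 2.37, SE 1.02, FDR = 0.256). F11 was far above the rest for both, TTN did not reach the wider level, and without F11 the log2FC was 0.83 for NEB (FDR = 0.545) and 0.08 for TTN. Of 20 markers of striated muscle these 2 could be matched, and their summed level was 65.3 to 279 CPM across H-RFI and 85.3 to 2598 CPM in L-RFI steers. The part of muscle tissue in the other differences was not tested, and without F11 the wider level held 1078 genes.

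Zinc finger and other nuclear factors split by direction, with 9 of 15 higher and 6 lower in L-RFI steers at an FDR below 0.2, and no overlap for 8 and 6 of them. In the list they were drawn from, 44 of 74 higher and 68 of 103 lower genes had no overlap. DOT1L, the methyltransferase of lysine 79 of histone H3, was at 95.3, 129, 155 and 86.8 CPM in H-RFI and 41.6, 43.1, 58.5 and 60.4 CPM in L-RFI steers (log2FC -1.19, SE 0.20, FDR = 0.126). RFX2, a factor of the regulatory factor X family, was at 79.9, 67.1, 23.9 and 46.2 CPM in H-RFI and 19.6, 12.36, 19.2 and 15.97 CPM in L-RFI steers (log2FC -1.70, SE 0.33, FDR = 0.126), with F1 highest. ZNF324, a zinc finger protein, was at 10.2, 14.5, 11.3 and 6.95 CPM in H-RFI and 2.86, 4.02, 5.38 and 2.68 CPM in L-RFI steers (log2FC -1.52, SE 0.29, FDR = 0.126). BEND3 and KLF16 were also lower (-1.06 and -1.01). The higher members were mostly zinc finger genes of unknown target (ZNF17, ZMAT1, ZSCAN31, ZDBF2, ZNF84 and ZSCAN12), with LIN9, of a cell cycle complex, the lymphatic factor PROX1 and PRDM6. Their log2FC ran from 1.003 for PRDM6 to 1.65 for PROX1.

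Of 7 immune genes, 6 were higher and 1 lower in L-RFI steers at an FDR below 0.2. TLR5 (ENSBTAG00000000477), the receptor for bacterial flagellin, was at 3.58, 1.32, 1.032 and 3.72 CPM in H-RFI and 9.91, 5.84, 5.499 and 8.51 CPM in L-RFI steers (log2FC 1.62, SE 0.42, FDR = 0.134), and CCRL2, a chemerin receptor, at 1.84, 1.496, 1.126 and 1.29 CPM in H-RFI and 2.09, 2.49, 4.52 and 3.497 CPM in L-RFI steers (log2FC 1.12, SE 0.32, FDR = 0.147). CXCL8, a chemokine for neutrophils, was low, at 0.871, 0.616, 0.657 and 1.46 CPM in H-RFI and 4.41, 1.53, 6.60 and 2.10 CPM in L-RFI steers, from 7 to 54 counts per steer (log2FC 1.99, SE 0.51, FDR = 0.133). The groups did not overlap for these 3 genes. CD1E and CLEC10A, both found in dendritic cells and macrophages, were at 2.61, 2.90, 1.97 and 1.46 CPM in H-RFI and 21.6, 2.49, 14.7 and 2.56 CPM in L-RFI steers (log2FC 2.20, SE 0.67, FDR = 0.158) and at 1.549, 0.704, 0.281 and 0.889 CPM in H-RFI and 4.08, 0.862, 6.48 and 1.63 CPM in L-RFI steers (log2FC 1.91, SE 0.65, FDR = 0.177). F10 and F14 stood high and F11 and F16 lay close to the H-RFI steers. Of 12 markers of macrophages and dendritic cells only these 2 could be matched, and their summed level was 2.25 to 4.16 CPM across H-RFI and 3.35 to 25.7 CPM across L-RFI steers, so their part in the immune differences was not tested. ULBP3, a stress ligand of natural killer cells, was the one that was lower (-1.86), and it overlaps 21 other genes in RefSeq, many of them near copies. It had 2 to 37 counts per steer and was above 1 CPM in H-RFI steers only. The filter thus fixed that its groups did not overlap.

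Ion channels and genes of excitability were also mostly higher, with 6 of 8 higher and 2 lower in L-RFI steers at an FDR below 0.2. Of all 177 listed genes, from which these 8 were drawn, 72 were higher and 99 lower at that level. SCN3A, a voltage-gated sodium channel, was at 5.33, 1.32, 2.35 and 2.18 CPM in H-RFI and 13.99, 11.4, 8.68 and 10.6 CPM in L-RFI steers (log2FC 2.01, SE 0.37, FDR = 0.126). Every L-RFI steer lay above F1, the highest H-RFI steer. The potassium channel KCNT2 was at 3.97, 1.23, 1.032 and 3.31 CPM in H-RFI and 8.26, 4.41, 7.58 and 7.58 CPM in L-RFI steers (log2FC 1.53, SE 0.42, FDR = 0.139), and CHRNA1, a subunit of the acetylcholine receptor of muscle, at 2.52, 2.73, 3.75 and 3.56 CPM in H-RFI and 9.25, 4.41, 5.99 and 6.06 CPM in L-RFI steers (log2FC 1.03, SE 0.28, FDR = 0.136), neither with overlap. KCNA5, another potassium channel, was at 1.45, 1.41, 1.78 and 0.889 CPM in H-RFI and 4.41, 3.83, 1.47 and 7.34 CPM in L-RFI steers (log2FC 1.62, SE 0.45, FDR = 0.138), with F14 inside the H-RFI range. Counts of these 4 channel genes ran from 11 to 127 per steer. SCN11A and WNK4 had a log2FC of 1.30 and 1.25, and KCNK5 and TMEM266 of -1.44 and -1.25. PRX, a marker of the Schwann cells that wrap nerves, was at 1.45, 1.41, 2.44 and 2.26 CPM in H-RFI and 3.08, 2.11, 2.69 and 4.90 CPM in L-RFI steers (log2FC 0.75, SE 0.34, FDR = 0.279), and the groups overlapped.

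Sterol and lipid metabolism held 17 listed genes, 9 lower and 7 higher in L-RFI steers at an FDR below 0.2, and 5 and 3 of them had groups that did not overlap. Over the whole list, 68 of 103 lower and 44 of 74 higher genes had no overlap. SREBF1 (ENSBTAG00000007884) was at 259.7, 397, 344 and 179.5 CPM in H-RFI and 117, 142, 153 and 124 CPM in L-RFI steers (log2FC -1.14, SE 0.22, FDR = 0.126), and TM7SF2, LSS and SQLE, which are enzymes of cholesterol synthesis, had a log2FC of -1.23, -1.03 and -1.31. LSS was at 173, 135, 181 and 160.2 CPM in H-RFI and 57.9, 123, 66.6 and 70.4 CPM in L-RFI steers, so that F11 came nearest to the H-RFI steers, and AACS, which activates acetoacetate for lipid synthesis, was at 176, 141, 195 and 108 CPM in H-RFI and 41.5, 99.0, 75.3 and 61.1 CPM in L-RFI steers, again with F11 highest among L-RFI steers. ACLY, which makes acetyl-CoA for fatty acid synthesis, was at 2220, 1268, 1591 and 1092 CPM in H-RFI and 548, 1316, 252 and 282 CPM in L-RFI steers (log2FC -1.36, SE 0.48, FDR = 0.188). F11 lay within the H-RFI range of ACLY, and without it the log2FC was -2.09. G0S2, an inhibitor of triglyceride breakdown, was at 96.1, 419, 129 and 177 CPM in H-RFI and 82.7, 83.8, 82.1 and 25.4 CPM in L-RFI steers (log2FC -1.58, SE 0.48, FDR = 0.158, and log2FC -0.97 without F7), and CIDEA, of the lipid droplet, at 59.2, 99.8, 74.8 and 47.5 CPM in H-RFI and 28.5, 48.8, 41.9 and 20.2 CPM in L-RFI steers (log2FC -1.01, SE 0.29, FDR = 0.146).

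Other genes of the same group were BDH1, HPGD and PDK4. BDH1, which interconverts the ketone bodies, was at 48.1, 82.4, 75.8 and 59.1 CPM in H-RFI and 26.3, 57.8, 27.0 and 13.8 CPM in L-RFI steers (log2FC -1.08, SE 0.36, FDR = 0.172), with F11 above F1. HPGD, which inactivates prostaglandins, was higher in L-RFI steers at 21.98, 16.9, 21.2 and 25.9 CPM in H-RFI and 83.7, 57.7, 28.4 and 33.6 CPM in L-RFI steers (log2FC 1.24, SE 0.31, FDR = 0.133), without overlap. PDK4, which closes the entry of pyruvate into the citric acid cycle, was at 266, 642, 679 and 586 CPM in H-RFI and 2537, 1151, 773 and 638 CPM in L-RFI steers (log2FC 1.23, SE 0.43, FDR = 0.187), and its log2FC was 0.66 without F10. F16 lay within the H-RFI range of PDK4.

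The matched markers of smooth muscle and fibroblasts did not reach the wider level, unlike CD1E, CLEC10A and NEB above. The smooth muscle genes ACTA2, ACTG2 and KCNMB1 had a log2FC of -0.43, -0.44 and -0.42 (FDR = 0.415, 0.668 and 0.347), and the summed level of these 3 of 10 markers was 156.5 to 331 CPM across H-RFI and 104 to 199 CPM in L-RFI steers. PI16, a fibroblast marker, was at 66.0, 228, 429.7 and 164 CPM in H-RFI and 217, 101, 233 and 91.6 CPM in L-RFI steers (log2FC -0.47, SE 0.50, FDR = 0.655), with the lowest and the highest steer both in H-RFI. No marker of endothelium, lymphocytes, epithelium or red blood cells could be matched.

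The steers of 1 class were not alike across these groups. Among the 103 genes listed as lower, F7 was the highest steer for 54, F8 for 31, F1 for 13 and F9 for 5. Among the 74 listed as higher, F7 was the lowest steer for 35, F8 for 23, F1 for 9 and F9 for 7, while F10 was the highest for 38. With each gene centred on the 8 steers, the median log2 level of the lower genes was 0.39, 0.98, 0.82 and 0.28 in F1, F7, F8 and F9, and -0.78, -0.58, -0.51 and -0.40 in F10, F11, F14 and F16. F7 had the lowest RFIfat of its class (0.54 kg) and stood farthest from the L-RFI steers, and F9, with the highest (2.03 kg), stood nearest to them. In a principal component analysis of all genes tested, the first component took 30.7% of the variance and gave the same picture, with F7 at -42.3, F8 at -29.2, F1 at -10.7 and F9 at 0.191, against 3.22, 11.1, 31.6 and 36.03 for F16, F14, F11 and F10. This component was computed from the same 8 steers and is a description.

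**Figure D3:**
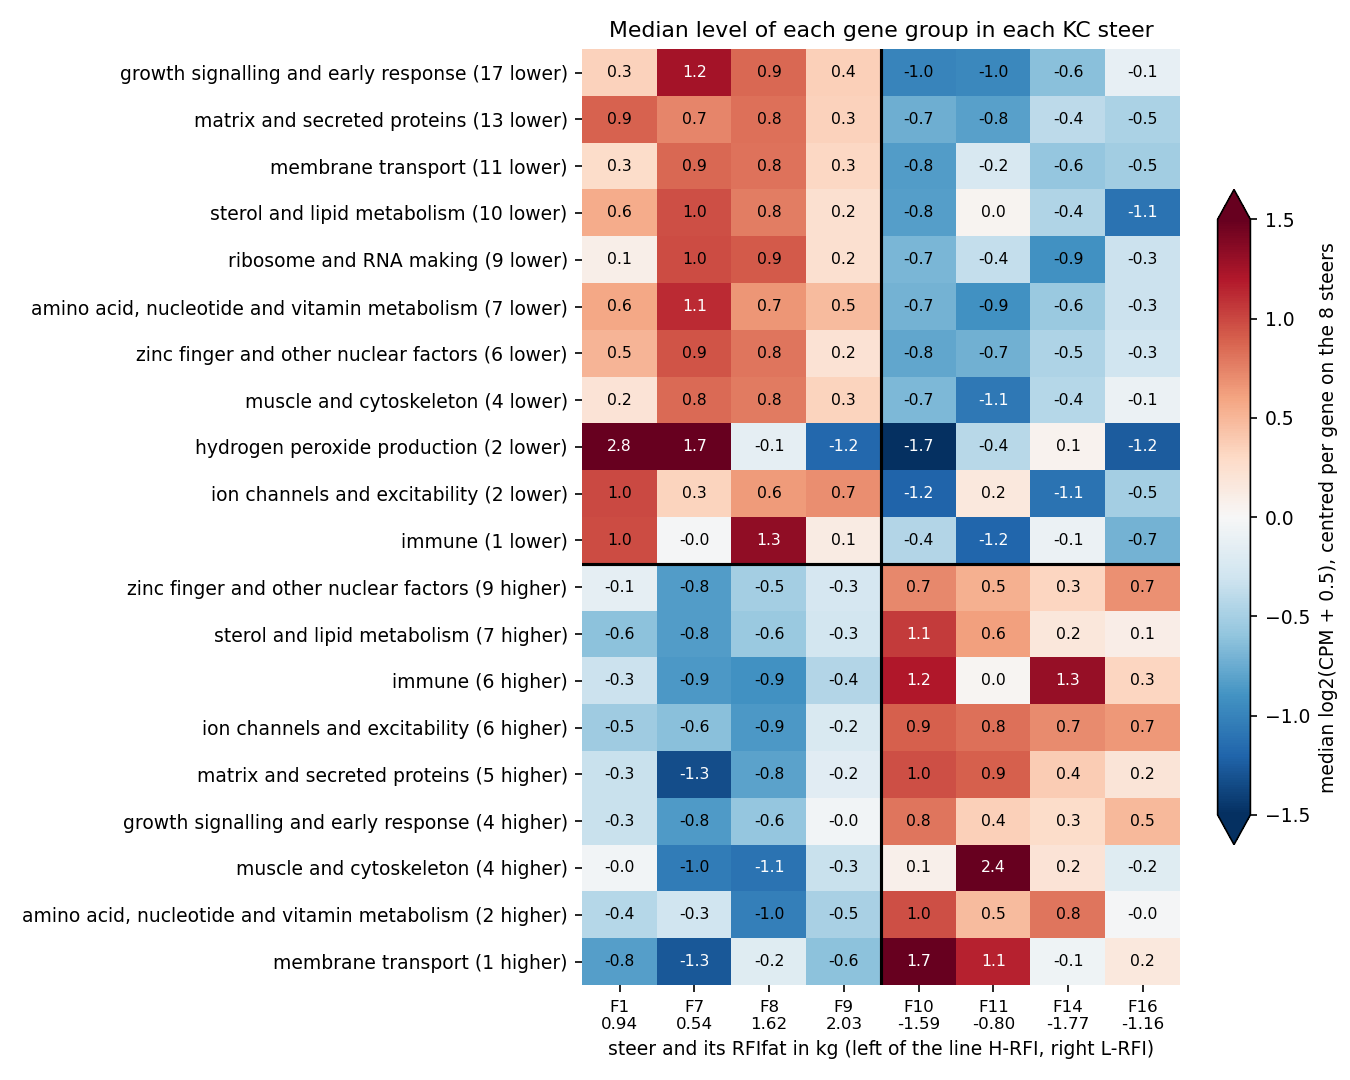
Median log2(CPM + 0.5), centred per gene on the 8 steers, for the lower (top) and higher (bottom) list genes of each role group, in each KC steer with its RFIfat in kg. The number printed in each cell is its value, and the colour scale ends at 1.5 in both directions. In most lower groups F7 or F8 holds the highest value, F1 and F7 hold those of hydrogen peroxide production (2.8 and 1.7), and F11 holds that of the higher genes of muscle and cytoskeleton (2.4).

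The steers of ANG and CHAR took no part in the KC comparison, and their levels can be set beside those of the KC classes. For 80 of the 103 genes listed as lower and 50 of the 74 listed as higher, the median of the 14 ANG and CHAR steers lay nearer to the KC L-RFI than to the KC H-RFI median, against 8609 of all 13725 genes tested. Among all genes at an FDR below 0.2 this held for 642 of 797 that were lower and 589 of 714 that were higher, shares no smaller than those of the listed genes. It held for 9 of the 9 genes in the group with C18H19orf48, for 18 of 21 of growth signalling and for 9 of 17 of sterol and lipid metabolism. DUSP4 was at 3.73 to 15.7 CPM (median 9.83) in the 14 other steers, so that each of them lay below the lowest KC H-RFI steer. ARC, at 0.109 to 2.81 CPM (median 1.173), and ZNF324, at 1.53 to 5.71 CPM (median 3.20), showed the same. SCN3A was the reverse, at 1.52 to 6.26 CPM (median 3.33), with all 14 below every KC L-RFI steer. For SREBF1 the 14 steers, at 130.1 to 415 CPM (median 224), had a median between those of the KC classes, and 12 of them were above the highest KC L-RFI steer.

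**Figure D4:**
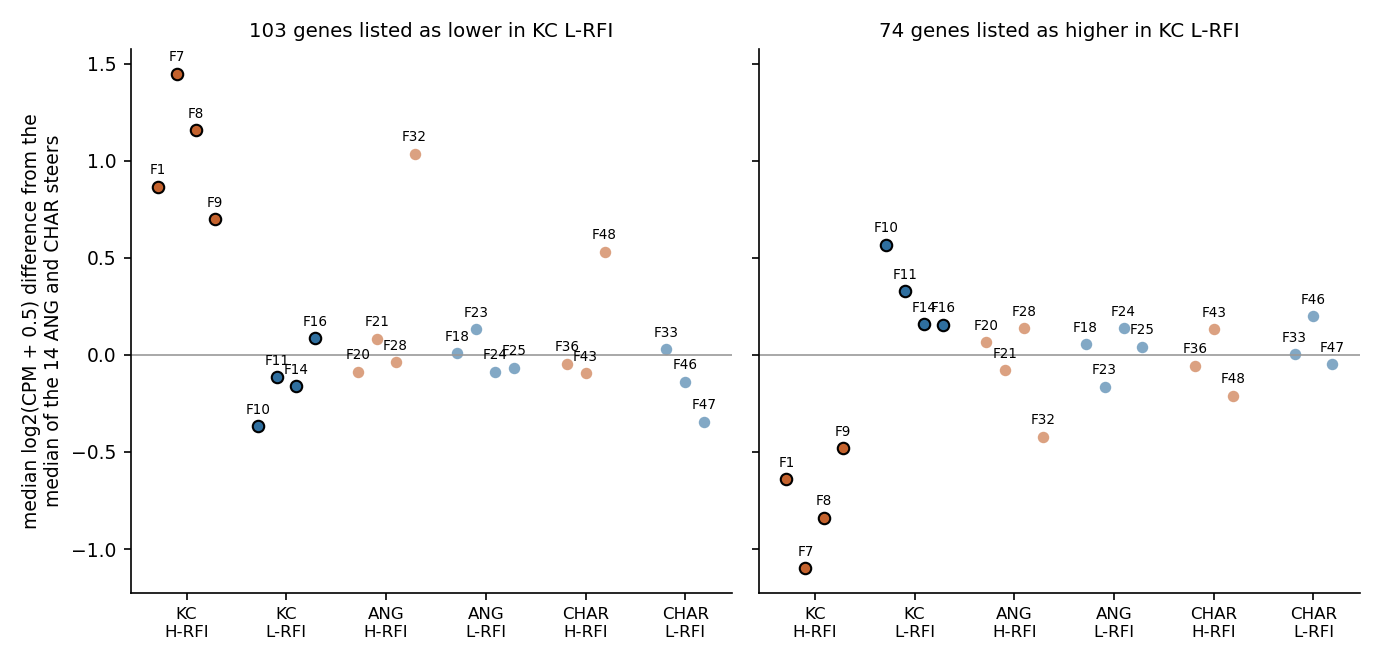
Median difference in log2(CPM + 0.5) from the median of the 14 ANG and CHAR steers, over the 103 genes listed as lower (left) and the 74 listed as higher (right) in KC L-RFI steers, for each of the 22 steers by breed and RFI class. The KC H-RFI steers lie at 0.698 to 1.447 on the left and -1.098 to -0.481 on the right, and the H-RFI ANG steer F32 lies inside that range on the left, at 1.037, and just outside it on the right, at -0.422.

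Over the same genes, the 4 KC H-RFI steers lay 0.70 to 1.45 above the median of the 14 steers for the lower list, and the KC L-RFI steers between -0.37 and 0.09. Of the 14 steers, F32 at 1.04, above the KC steers F1 and F9, and F48 at 0.53 were both labelled H-RFI, and the others lay between -0.34 and 0.13. The other 5 H-RFI steers of ANG and CHAR lay at -0.09 to 0.08.

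Within ANG, 68 of 96 genes of the KC lower list that could be tested were lower in L-RFI steers (70.8%, against 50.9% of all genes tested), with a median log2FC of -0.32. Of them, 9 had an unadjusted p under 0.05, against 423 lower genes among all 13449 tested. Within CHAR, 71 of 98 genes of that list were lower (72.4%, against 50.5%), with a median of -0.45. Of them, 15 had an unadjusted p under 0.05, against 293 lower genes among all 13477 tested. The KC higher list had 47 of 72 genes higher in efficient steers of ANG and 44 of 69 in those of CHAR, with a median of 0.14 and 0.13. Among all genes tested, 6609 of 13449 were higher in ANG and 6667 of 13477 in CHAR. No gene of either list had an FDR below 0.1 in ANG or in CHAR (edgeR's quasi-likelihood test). Genes of 1 list are not independent of each other, so these counts carry no test. On the lower list the H-RFI steers F32 of ANG (1.04) and F48 of CHAR (0.53) stood apart from the other steers of their breeds. No fit left out a steer of ANG or CHAR, so how far the lower-list counts rest on F32 and F48 was not tested. All 9 genes of the group with C18H19orf48 were lower in L-RFI steers of both breeds, with a median of -0.46 in ANG and -0.50 in CHAR against -1.15 in KC. Of the 10 genes of sterol and lipid metabolism listed as lower in KC, 3 were lower in ANG and 5 in CHAR.

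**Figure D5:**
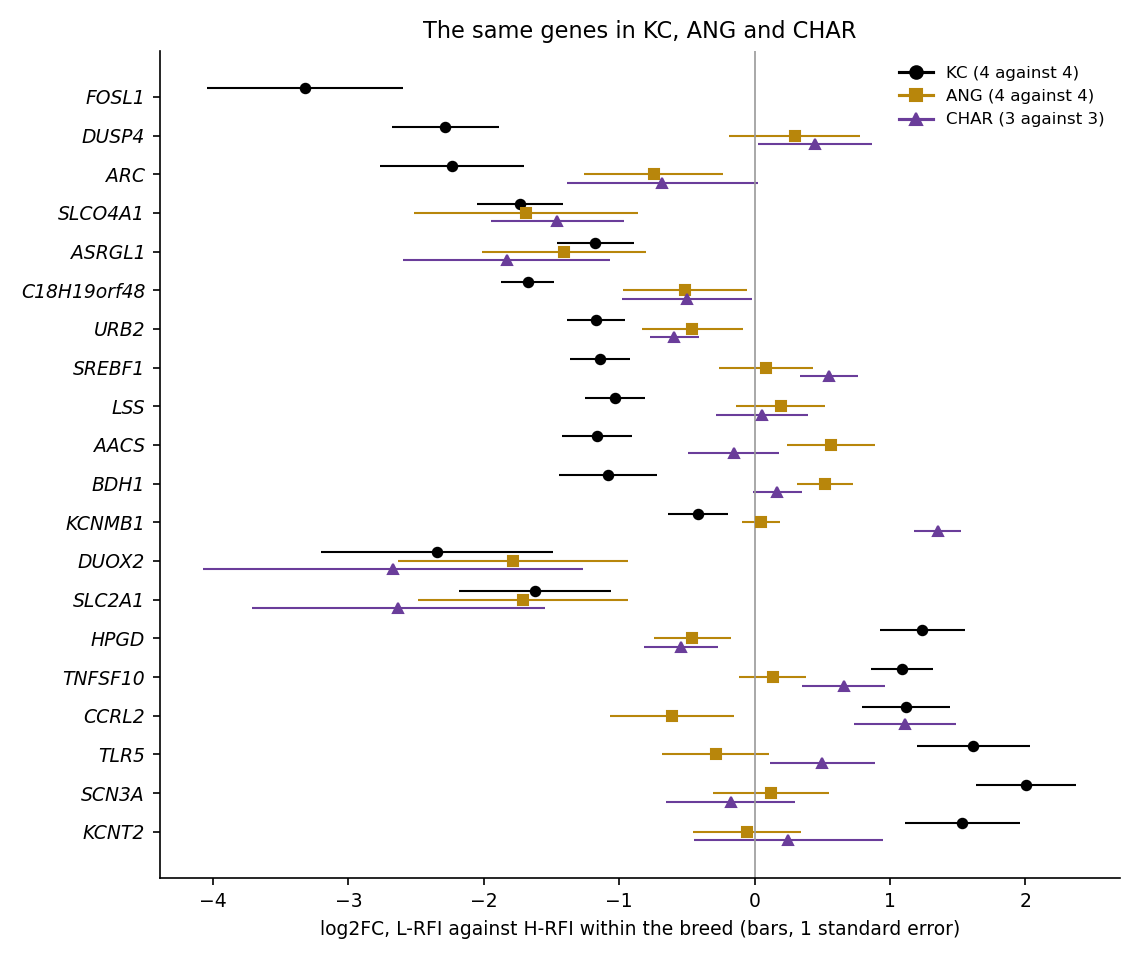
Log2FC of L-RFI against H-RFI steers within KC (circles), ANG (squares) and CHAR (triangles) for 20 named genes, with bars of 1 standard error. SLCO4A1, ASRGL1, DUOX2 and SLC2A1 lie left of 0 in all 3 breeds, whereas DUSP4, SREBF1 and LSS do so in KC alone, and FOSL1 has no value in ANG and CHAR because it did not pass the filter there.

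Whether the RFI difference of KC differed from that of the other breeds was tested over all 22 steers, as the KC log2FC minus the mean of those in ANG and CHAR. Of 13606 genes tested, 0 had an FDR below 0.1 (0%) in edgeR's quasi-likelihood test (smallest FDR 0.143, and 1239 genes at an unadjusted p under 0.05), while DESeq2 gave 34. DUSP4 had a log2FC of 0.30 in ANG and 0.45 in CHAR, a difference of -2.65 (SE 0.60, FDR = 0.447). SREBF1 had 0.09 in ANG and 0.55 in CHAR, a difference of -1.46 (SE 0.38, FDR = 0.447). For BDH1 the difference was -1.43 (SE 0.38, FDR = 0.447), and for HPGD, at -0.46 in ANG and -0.54 in CHAR, it was 1.74 (SE 0.41, FDR = 0.447). The difference of KCNMB1, -1.12 (SE 0.22, FDR = 0.177), came with a log2FC of 1.35 (SE 0.17) in CHAR and -0.42 in KC. None of these passed the threshold, so none was shown to be particular to KC.

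Other genes, of which only some are given here, had a log2FC below -1 in each of the 3 breeds. None of them had an FDR below 0.1 in any breed. SLCO4A1 was at -1.69 (SE 0.83) in ANG and -1.46 (SE 0.49) in CHAR, and its difference from KC was -0.16 (SE 0.82, FDR = 0.967). ASRGL1 was at -1.41 (SE 0.61) and -1.83 (SE 0.77), SLC2A1 at -1.71 (SE 0.77) and -2.63 (SE 1.08), and DUOX2 at -1.78 (SE 0.85) and -2.67 (SE 1.40). The 14 ANG and CHAR steers were unevenly spread for these genes. SLCO4A1 was at 2.07 to 52.7 CPM (median 5.86) and ASRGL1 at 26.2 to 268.8 CPM (median 38.0) in them. SLC2A1 was at 8.89 to 271.5 CPM (median 22.2) and DUOX2 at 0.329 to 165.5 CPM (median 15.8). How far the log2FC in ANG and CHAR rest on single steers was not tested. The differences of KC from the other breeds were 0.44 (SE 0.76, FDR = 0.877) for ASRGL1, 0.55 (SE 1.09, FDR = 0.896) for SLC2A1 and -0.12 (SE 1.38, FDR = 0.986) for DUOX2. With standard errors of 0.76 to 1.38 in these, a difference of 1 between breeds could not be told from 0. All genes named for this test except KCNMB1 were listed for their difference in KC, and the KC steers enter it.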

How the data were processed

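Per the file headers and the study, the authors sequenced rRNA-depleted total RNA of backfat (stranded kit), aligned trimmed reads with TopHat2 2.0.9 to the bovine build UMD3.1, and deposited whole-number read counts per Ensembl gene from HTSeq 0.6.1 (tools and build from the submitters' processing notes). The strand setting of the counting is not given in the sources used here. Rows for reads without a gene or with several genes (57.5 to 62.5% and 0.30 to 1.55% of singly placed reads in KC) stayed out of library sizes and tests.

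From these counts, genes with a CPM above 1 in at least 50% of the 8 KC steers were tested with edgeR 4.0.16 (R 4.3.3), using TMM, the quasi-likelihood test and Benjamini-Hochberg FDR over all genes tested. The same was done within ANG and CHAR, and the KC effect minus the mean of theirs was tested in 1 fit of 22 steers. Levels are CPM with TMM, and profiles used log2(CPM + 0.5). The standard error (SE) of a log2FC was derived from the test, as the absolute log2FC divided by the square root of its F statistic. Library measures were compared with exact permutation tests, 2-sided. Fits were tested on simulated data. Alternatives were DESeq2 1.42.0, other tests, scalings and filters, and leaving out each steer.

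Members and lists were chosen with earlier results of these data known. Named genes were up to 4 with the smallest p in each role group, up to 2 more and both ends of each pathway list, the matched markers and the genes with the smallest interaction p. Another 39 genes were named after their values were seen, to complete groups. Since the reference names no Ensembl identifiers, symbols came from the study's list only. Genes outside that list were tested but not named. Most pathway and marker genes could therefore not be picked out, and promoters and sequences were not analysed here. The fold changes and p-values of the study's list were not used. RefSeq's newer assembly served for overlaps only. Some genes are not reported by name. Each steer is 1 library, and the p-values of the fits weigh the difference between classes against the spread between steers within a class.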

Additional observations from a re-analysis of the deposited data

Results flagged for a closer look

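Among the named genes and library measures, 10 values lay far from those of the other 3 steers of their group (Dixon's test at the 95% level for 4 samples). Of the 228 groups examined chance flags about 1 in 20, so 10 flags are no more than chance gives. In H-RFI steers the flagged values were those of F8 for ITGA5, at 600.5 CPM against 382 to 409 CPM in the others, and of F7 for ARC, at 12.8 CPM against 3.64 to 4.97 CPM. HAS1 was at 8.54 CPM in F7 against 1.45 to 1.59 CPM, LRG1 at 16.5 CPM in F8 against 1.74 to 3.80 CPM, and RASL11A at 11.2 CPM in F9 against 7.55 to 8.01 CPM. In L-RFI steers G0S2 was at 25.4 CPM in F16 against 82.1 to 83.8 CPM, and NDNF at 6.995 CPM in F16 against 2.53 to 3.18 CPM. ZFAND2A, a stress-induced zinc finger gene (log2FC -1.12, SE 0.35, FDR = 0.161, and log2FC -0.74 without F7), was at 8.06 CPM in F14 against 4.85 to 5.36 CPM. F11 stood out for both muscle genes, with NEB at 204 CPM against 2.92 to 7.33 CPM and TTN at 2394 CPM against 80.3 to 257 CPM. Causes were not tested.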

How the results depend on the processing

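The count of DE genes in KC, 1 in the analysis reported, depended most on the test. It was 165 with DESeq2, 177 with edgeR's exact test, 189 with its likelihood ratio test, 109 when all 22 steers were fitted together, 0 with RFIfat in kg as regressor and 0 at an FDR below 0.05, and between 0 and 54 when 1 steer was left out (54 without F11). At an FDR below 0.2, the 714 higher genes became 317 without a filter on low counts, 1177 with all 22 steers and 0 with the regressor, and 0 to 789 without 1 steer. The 797 lower genes became 481, 1116 and 0 under these settings, and 0 to 899 without 1 steer. The lowest counts came without F7, F8 or F10. Counts of the interaction, 0 in the analysis reported, were 1 for KC against CHAR alone, 34 with DESeq2 and 0 to 2 without 1 steer (2 without F11). RLE scaling, upper-quartile scaling, edgeR's own filter and thinned counts kept these counts within 1.5 times. All 177 listed genes kept their direction in each test of all 8 steers in which they passed the filter. Leaving out 1 steer moved the log2FC of PI16 between -0.77 and 0.07 and that of ACTG2 between -0.68 and 0.20, and the median of the muscle and cytoskeleton group, 0.01 with all steers, between -0.44 and 0.14. The difference in library measures kept its sign without each steer in turn, an alternative chosen after seeing the data. The cause of these changes was not tested. In simulated KC counts, 38% of genes changed by a log2FC of 1 were called DE and 72.5% had an FDR below 0.2, and 96.5% of those changed by a log2FC of 2 were called DE. A change of exactly 1 also misses the fold limit where its estimate falls below 1, so the 38% reflects that limit too. The simulation changed 200 genes and drew each gene independently, so it holds no shift shared by many genes in 1 steer. Some replicate spread may be technical. No paired analysis was possible because the labels number each steer separately.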

Other observations

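Genes that the study listed for the other breeds were read in the 8 KC steers, for which they were not chosen. Of the 39 genes listed as lower in ANG but not listed for KC, 33 had a lower level in KC L-RFI steers, against 6854 of all 13725 genes tested, with a median log2FC of -0.44, but 0 reached an FDR below 0.2 in edgeR's quasi-likelihood test and 3 were lower at an unadjusted p under 0.05, against 1282 of all 13725. The 17 genes listed as higher in CHAR but not for KC had a median log2FC of 0.001 in KC (-0.905 to 0.898). Of them, 9 were higher and 8 lower in L-RFI steers, and 1 was higher at an FDR below 0.2. The 19 tested of those listed as lower in CHAR had a median of -0.003 (-2.988 to 1.212). Of these, 9 were higher and 10 lower, and 1 was lower at an FDR below 0.2.

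In KC, 40 listed genes with a symbol fell in none of the 11 role groups, 22 of them higher and 17 lower in L-RFI steers at an FDR below 0.2. They include OCLN, of tight junctions (log2FC 1.11), GLP2R, the receptor of glucagon-like peptide 2 (1.56), GREB1, an oestrogen-induced gene (-1.46, and -0.88 without F7), and the orphan receptor GPRC5A (-1.40), which were chosen after their values were seen. The groups overlapped for none of these 4 genes. GLP2R had only 4 to 16 counts per steer and was above 1 CPM in L-RFI steers only. It passed the filter through them, so its lack of overlap follows from that filter.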
